A study of Rattus norvegicus with 20 samples.

Results

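The transcripts described here were much more abundant in polyA-enriched libraries than in libraries depleted of ribosomal RNA (RBD) from the rat hippocampus. They were chosen by the measured values themselves, namely the ratio L of the mean of the 14 polyA samples plus 5 to the mean of the 6 RBD samples plus 5, in normalized counts. A transcript was kept when its polyA mean was at least 50 and L was at least 4, and 181 of the 32883 rows of the table passed, fewer than the limit of 200. Among the rows, 12609 had a polyA mean of at least 50. The table carries no gene identifiers, so each transcript is given by its row and no gene name was assigned. For this reason neither the known roles of the members nor marker genes of the dissected tissue could be examined.

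The samples came from male Wistar rats aged 3 months that were handled and received no treatment. The polyA dataset held 7 animals and the RBD dataset 3, taken as other animals from the sample labels. Each animal gave a dorsal and a ventral sample, so that 20 samples were available. The hippocampus with dentate gyrus, CA fields and subiculum was cut into 3 equal parts, and the intermediate part was not collected. RNA for the polyA libraries was extracted with Qiazol and RNA for the RBD libraries with ExtractRNA, so that library type, animals and extraction reagent cannot be told apart. A normalized count is the number of reads on a gene divided by a size factor of its sample. The deposited size factors matched factors computed over all 20 samples within a relative 1.91e-12, while the study describes normalization for each dataset, and L depends on this common scaling. With every sample scaled to 1 common total instead, 174 rows passed, all of them among the 181. The polyA samples had 23825086 to 25262001 reads on genes and the RBD samples 14920611 to 18647986.

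Most messenger RNAs end in a poly(A) tail, which oligo(dT) beads bind, and RNA without a tail or with a very short tail is lost in this step. Removal of ribosomal RNA keeps RNA with and without a tail. For this reason both library types are expected to hold most messenger RNAs, at proportions that depend on the tails, on the length and integrity of the RNA and on the molecules captured by the depletion probes.

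The members covered a wide range of levels. L ranged from 4.02 to 1092 with a median of 12.6, and 59 members had a value of 4 to 8, 52 of 8 to 16, 50 of 16 to 64 and 20 of at least 64. The mean polyA level ranged from 50.2 to 340487 normalized counts with a median of 160. Most members were thus weakly expressed, and 119 of the 181 (65.7%) had a mean of 50 to 300 normalized counts, a range that held 30.6% of the 12609 rows. At the upper end, 14 members had at least 5000 normalized counts. In RBD samples the mean ranged from 0 to 46134 normalized counts with a median of 5.44.

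Reads of many members were few or missing after depletion of ribosomal RNA. In RBD samples, 21 members had no read in any of the 6 samples, and 60 (33.1%) had at most 3 reads in each of them. A count of 0 allows up to 3 reads, that is 3.46 to 4.28 normalized counts depending on the RBD sample, and this limit covers counting error only. Against the mean of this limit over the 6 samples, the 21 members without reads were at least 13.5-fold to at least 236-fold lower in RBD samples. The number of members with at least 1 read was 180 or 181 in each polyA sample, and 129 to 137 in the RBD samples. In 175 members (96.7%), the lowest polyA sample lay above the highest RBD sample. Among all rows with a polyA mean of at least 50 this was found for 17%, but the choice of the members used this contrast and no result is drawn from the count.

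The limits of the choice divide a continuous range. The lowest values of L inside the limit were 4.02 for 2 rows, and the nearest values outside it were 3.97 and 3.86. Among rows with L of at least 4, the polyA means nearest to the limit were 50.2 normalized counts inside and 49.7 outside.

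**Figure D1:**
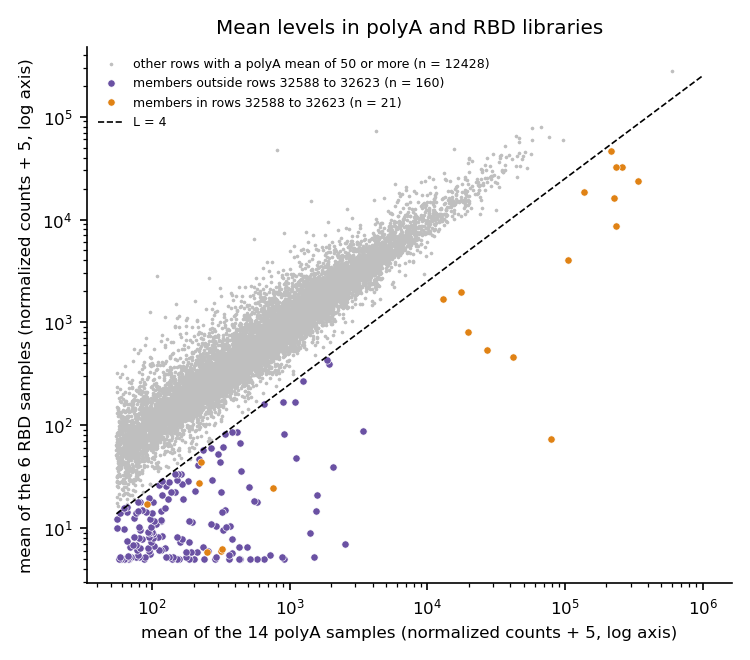
Mean level of each row in the 14 polyA samples (x axis) and in the 6 RBD samples (y axis), in normalized counts plus 5 on log axes. Grey points are rows with a polyA mean of at least 50 that are not members, purple points are 160 members and orange points are the 21 members in rows 32588 to 32623, and the dashed line marks L = 4. The orange points include all 14 members with a polyA mean of at least 5000.

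The highest L was found in row 32588. Its dorsal polyA samples had 60770 to 97058 normalized counts (median 71338) and its ventral polyA samples 63527 to 105226 (median 85495). The dorsal RBD samples had 55.6, 67.1 and 80.5 normalized counts and the ventral RBD samples 56.8, 57.6 and 89.8, so that this abundant polyA transcript was a weak one in every RBD sample.

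The second value of L, 355, belonged to row 14329. It had 2107 to 2491 normalized counts (median 2357) in dorsal and 2379 to 2966 (median 2714) in ventral polyA samples. Its 6 RBD samples lay between 1.22 and 3.59 normalized counts, with 10 reads in all and at most 3 in a sample. In polyA samples it was higher in the ventral part in 7 of 7 animals, by a log2 fold change of 0.20, with a standard error of 0.046 and an adjusted p of 0.00152 from limma. All fold changes compare ventral with dorsal samples after 1 was added to each normalized count, and transcripts were counted as differentially expressed (DE) at an adjusted p below 0.1.

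The members were not spread evenly over the levels and over the table. A stretch of 36 rows, from row 32588 to row 32623, held 21 members, while the next longest group of members that were at most 5 rows apart had 3, and 149 members had no other member within 5 rows. This stretch was picked out after its values were seen, and no test was made of it as a group. It held all 14 members with a polyA mean of at least 5000 normalized counts, and 8 of the 10 rows with the highest polyA means of the whole table were among its members. The other 7 members of the stretch had lower polyA means, 4 of 50 to 300 and 3 of 300 to 1000 normalized counts. L of the 21 members in the stretch ranged from 4.65 to 1092 with a median of 14.2, beside a median of 12.5 in the 160 other members. Enrichment was thus not equal among neighbouring rows. Of the 15 other rows of the stretch, 3 had no read in any sample and 4 had L of at least 4 with a polyA mean below 50. Row 32602 in the same stretch had the highest polyA mean of the table, 599395 normalized counts, with an L of 2.17.

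Abundant neighbours in the stretch kept very different parts of their level in RBD samples. Row 32608, the most abundant member, had a mean of 340487 normalized counts in polyA and 23926 in RBD samples. Row 32605 had 214583 and 46134, and its L of 4.65 was the lowest among the members of the stretch. Row 32607 had 41920 and 459, an L of 90.4. These rows were singled out after their values were seen.

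The 21 members of the stretch made up nearly all of the counts of the members. All 181 members together took 7.30% to 9.22% of the normalized counts (median 7.93%) in dorsal and 9.16% to 11.0% (median 10.1%) in ventral polyA samples. In RBD samples they took 0.705%, 1.08% and 0.852% in the dorsal and 0.756%, 1.01% and 0.957% in the ventral part. The 21 members of the stretch alone held 7.06% to 8.98% in dorsal and 8.93% to 10.7% in ventral polyA samples. The 160 other members held 0.223% to 0.245% in dorsal and 0.222% to 0.233% in ventral polyA samples, and 0.0148% to 0.0167% in the RBD samples. The difference between library types is what the members were chosen for, and it is given without a test.

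**Figure D2:**
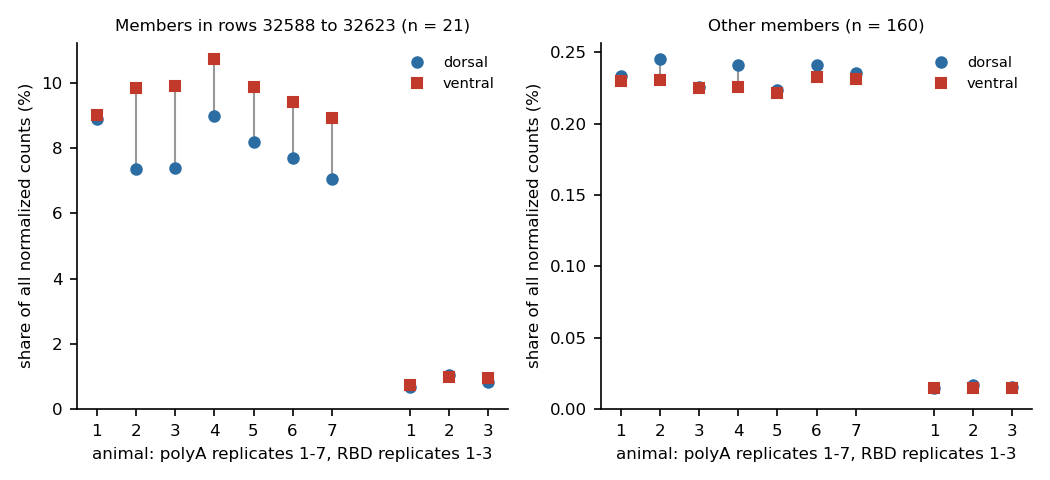
Share of all normalized counts (y axis, percent) taken by the 21 members in rows 32588 to 32623 (left) and by the 160 other members (right) in each animal (x axis). Blue circles are dorsal and red squares ventral samples, and grey lines join the samples of an animal. In 6 of 7 polyA animals the share of the 21 members was clearly higher in the ventral part, in polyA replicate 1 the shares differed by little, and the right panel has an axis of its own that reaches 0.25%.

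The comparison of the dorsal and ventral parts did not enter the choice of the members and could be tested. In tissue samples, fewer cells of a type and less RNA per cell cannot be told apart. In the polyA dataset all 181 members were tested, and 80 (44.2%) were DE. The ventral hippocampus had the higher level for 46 and the dorsal for 34. Over all 15152 rows tested, 52.9% were DE, with 25.3% higher in ventral and 27.5% in dorsal samples. This fit did not pair the samples of an animal. With the animal as a block more members were DE, beside 59.8% of all rows, and their number is given in the last section. The lower share of members in the unpaired fit is therefore not read as a result. Among the members the median size of the log2 fold change was 0.19, beside 0.16 for all rows, and their median standard error was 0.089 beside 0.062. Large differences were few. Only 2 members were DE with a log2 fold change of 1 or more in size, which is 1.10% of the members and was 3.92% of all rows.

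The members in rows 32588 to 32623 leaned to the ventral part in polyA samples. All 21 members there had a positive log2 fold change, from 0.07 to 0.41 with a median of 0.23. Of these, 14 (66.7%) were DE, all higher in the ventral hippocampus. Among all rows, 25.3% were DE and higher in ventral samples, and 52.9% were DE in either direction. With the animal as a block, 19 of the 21 were DE, and 59.8% of all rows in either direction. The 21 rows were measured in the same 2 samples of each animal and are not 21 independent observations. No result is therefore drawn from setting these counts beside those of all rows. Row 32588 itself did not pass the test, as its log2 fold change of 0.20 had an adjusted p of 0.142 from limma (0.00181 with the block). It was higher in the ventral part in 6 of 7 animals.

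The log2 ratio of the summed counts of these 21 members, ventral to dorsal, was 0.42, 0.42, 0.25, 0.24, 0.25 and 0.31 in polyA replicates 2 to 7. In polyA replicate 1 it was -0.036. This animal thus lay apart from the 6 others, and only 8 of the 21 members were higher in its ventral part, against 19 to 21 in the others. Its dorsal sample had a share of 8.90% in these members, the second highest of the 7 dorsal samples. The share in its ventral sample was 9.01%, so that the sign of its small difference depended on the scaling. Without replicate 1, 17 of the 21 members were DE, a count that is not set against all rows. The summed counts of all rows that were not members had log2 ratios of -0.07 to -0.04 in the 7 polyA animals.

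In the RBD samples the animals differed in sign. The log2 ratios of the summed counts of the 21 members of the stretch were 0.05, -0.11 and 0.11 in RBD replicates 1 to 3. Of these 21 members, 18 were tested in RBD samples, where limma found 0 DE, beside 28.4% of all rows tested. At an unadjusted p below 0.05 it found 0, beside 4921 of all 14699 rows. With edgeR and DESeq2 0 were DE each, counts that are not set against all rows here. With the animal as a block 1 of the 18 was DE, beside 40.1% of all rows. This was row 32614, higher in the ventral part by 0.23 on the log2 scale (adjusted p = 0.0340 from limma). Its values had been seen when it was singled out. Without RBD replicate 3, with 2 animals left, 2 members were DE, both higher in the dorsal part, a count that is not set against all rows. In the fit of all RBD animals without the block, the log2 fold changes of the 18 tested members were -0.23 to 0.52. Their standard errors were 0.095 to 0.48, and 10 of the 18 fold changes were positive. The median standard error was 0.21, beside the median difference of 0.23 in polyA samples, and with the block the standard errors were 0.057 to 0.44.

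**Figure D3:**
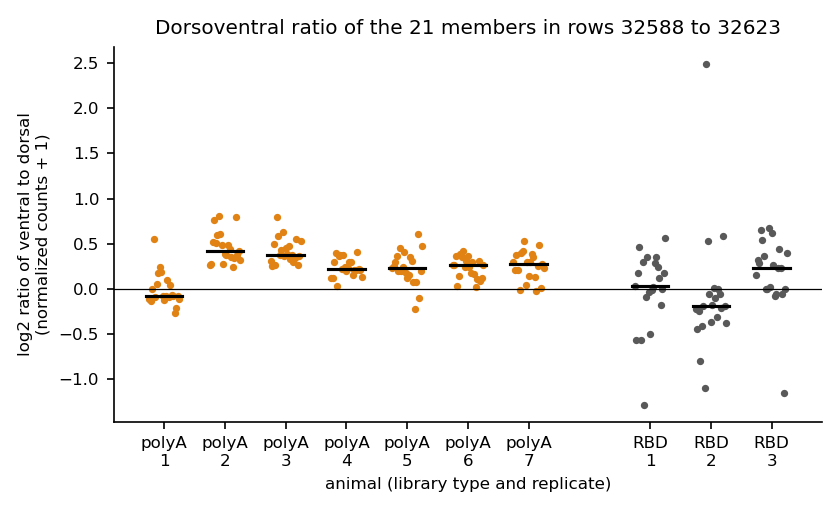
Log2 ratio of ventral to dorsal normalized counts plus 1 (y axis) of each of the 21 members in rows 32588 to 32623 in each animal (x axis). Each point is a row, spread sideways in row order, and black bars are medians. The medians were -0.08 in polyA replicate 1, 0.23 to 0.42 in polyA replicates 2 to 7, and 0.03, -0.19 and 0.23 in the RBD animals.

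The 160 other members had no common direction. In polyA samples 66 of them (41.2%) were DE, of which 32 were higher in ventral and 34 in dorsal samples. The median log2 fold change of the 160 was -0.018, beside -0.0043 for all rows tested. The log2 ratio of their summed counts was -0.11 to -0.01 in the 7 polyA animals, which lies around that of the rows that were not members. Of the 66, 24 were higher in the ventral part of all 7 animals and 22 in the dorsal part of all 7, which is 15% and 13.8% of the 160 members, beside 18.9% and 21.1% of all rows tested. A log2 fold change of 0.5 or more in size was found for 7 members higher in the ventral and 8 higher in the dorsal hippocampus, 4.38% and 5% of the 160, beside 7.33% and 5.91% of all rows.

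Among members that were DE in polyA with 1 direction in all 7 animals, the largest difference to the ventral part was found in row 10556. Its dorsal polyA samples had 61.4 to 80.9 normalized counts (median 67.2) and its ventral polyA samples 155.8 to 185.6 (median 165.5), so that the groups were far apart. The means were 68.3 ± 6.38 and 170 ± 12.1 (SD, n = 7 each), and the log2 fold change of 1.30 (SE 0.073) had an adjusted p of 1.62e-10 from limma. Every animal showed this direction. The dorsal RBD samples had 1.43, 0 and 0 normalized counts and the ventral ones 5.16, 0 and 1.40, too few for a test.

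By the same rule row 1233 followed, with 273 to 388 normalized counts (median 304) in dorsal and 468 to 608 (median 529) in ventral polyA samples. These groups did not overlap either. Row 27923, outside this rule and singled out after its values were seen, had a larger log2 fold change of 0.98 (adjusted p = 0.0328 from limma), but its ratios ranged from -0.22 to 2.17 and were above 0 in 5 of 7 animals. The difference of row 1233 was 0.75 on the log2 scale, with an SE of 0.076 and an adjusted p of 2.54e-07 from limma, in 7 of 7 animals. With L of 66.5 row 1233 was among the most enriched members, and no RBD sample had more than 2 reads of it.

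In the dorsal direction, row 13869 came first by this rule. Its level varied strongly between animals, with 818 to 3038 normalized counts (median 1194) in dorsal and 319 to 1213 (median 535) in ventral polyA samples. The groups overlapped, but the dorsal sample was higher in 7 of 7 animals, and the log2 ratio of an animal was -1.74 to -0.73. For the log2 fold change of -1.26, limma gave an SE of 0.36 (adjusted p = 0.00749), which became 0.079 with the animal as a block (adjusted p = 1.70e-09). Row 13869 was also DE in RBD samples, where the dorsal samples had 452, 431 and 258 and the ventral samples 184, 144 and 129 normalized counts. There the log2 fold change was -1.28, with an SE of 0.23 and an adjusted p of 0.00454 from limma. The difference between the datasets, -0.024 with an SE of 0.16, did not pass the test.

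Row 1420 was a weak transcript, with 57.2 to 82.8 normalized counts (median 66.9) in dorsal and 25.7 to 56.2 (median 35.4) in ventral polyA samples, which did not overlap. It was lower in the ventral part of 7 of 7 animals, and its log2 fold change of -0.92 (SE 0.16) had an adjusted p of 0.000107 from limma. No RBD sample had a read of this row.

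**Figure D4:**
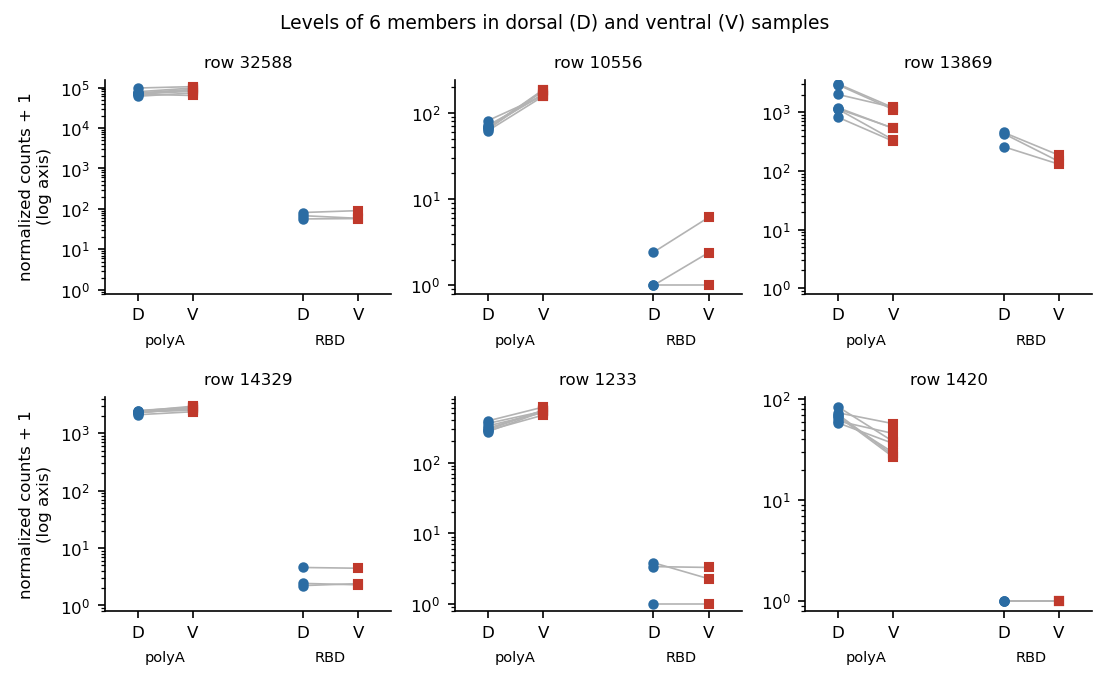
Normalized counts plus 1 (y axis, log scale) of the 2 members with the highest L (left), and, among members DE in polyA with 1 direction in all 7 animals, the 2 with the largest difference to the ventral (middle) and to the dorsal part (right). Blue circles are dorsal (D) and red squares ventral (V) samples, and grey lines join the samples of an animal, 7 for polyA and 3 for RBD. In row 13869 all 10 lines fall from the dorsal to the ventral part.

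In the RBD dataset only 66 of the 181 members passed the filter on low counts, and 6 of them (9.09%) were DE, of which 2 were higher in ventral and 4 in dorsal samples. Over all 14699 rows tested in RBD samples, 28.4% were DE, with 14.4% higher in ventral and 14% in dorsal samples. The members had few reads there, and their median standard error of 0.29 was larger than that of all rows, 0.11. With the animal as a block, 10 members were DE (beside 40.1% of all rows). Of the 66 members, 1 passed the filter through the samples of a single part, row 6942, which is among the members counted as DE in RBD and in the interaction. Of the 80 members that were DE in polyA, 35 were also tested in RBD, and 25 of these (71.4%) had the same direction in both. For all rows DE in polyA and tested in RBD this share was 89.0%. DE in both datasets were 4 members without a change of direction, 1 of them to the ventral and 3 to the dorsal side. These 4 were 5% of the members DE in polyA and 66.7% of those DE in RBD, beside 43.8% and 84% for all rows.

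Apart from row 13869, the members DE in both datasets, also chosen here after their values were seen, were rows 26527, 12083 and 8380. Row 26527 was the ventral one, with 145.6 to 223 normalized counts (median 192) in dorsal and 222 to 249 (median 237) in ventral polyA samples. In RBD samples it had 31.4, 26.3 and 22.0 in the dorsal and 42.6, 41.5 and 51.9 in the ventral part, so that these groups did not overlap. Its ventral sample was higher in all 10 animals.

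Row 12083 was separated without overlap in both datasets. Its dorsal polyA samples had 378 to 443 normalized counts (median 420) and its ventral ones 316 to 356 (median 329). Its dorsal RBD samples had 121, 101 and 85.4 and its ventral ones 63.2, 59.9 and 53.3. The log2 fold change was -0.34 (SE 0.045) in polyA and -0.78 (SE 0.19) in RBD. The difference between the datasets was -0.44, with an adjusted p of 0.0217 from limma. Its SE of 0.095 lay below the SE of 0.18 in RBD with the block, as that fit assumed 1 variance for both library types. No result is therefore drawn from this p.

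Row 8380 was weak and lay close to the limits of the tests, with adjusted p of 0.0987 in polyA and 0.0869 in RBD from limma. It had 69.6 to 92.6 normalized counts in dorsal and 56.2 to 88.6 in ventral polyA samples, which overlapped. In RBD samples it had 15.7, 14.4 and 28.1 in the dorsal and 12.9, 4.61 and 2.81 in the ventral part. Only 5 of 7 polyA animals were higher in the dorsal part, but all 3 RBD animals were.

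Whether the dorsoventral difference itself depended on the library type was tested by an interaction term in a fit over all 20 samples that had the animals as blocks. Among the 66 members tested, 13 (19.7%) differed between the datasets, beside 10.2% of all 14174 rows. The fit assumed 1 variance per row for both library types, while the members had few reads in RBD samples through their choice. The median standard error of the members was 0.16, beside 0.29 in the RBD fit without the block. For all rows tested these values were 0.092 and 0.11. No result is therefore drawn from the higher share of the members. In 10 of the 13 the log2 fold change was more to the dorsal part in RBD than in polyA, and in 3 more to the ventral part. Among the 1439 rows of all that passed, 791 were more to the dorsal and 648 more to the ventral part. No result is drawn from the split of the 13. The stretch of rows 32588 to 32623 held 3 of the 13, all more to the dorsal part in RBD. Without polyA replicate 1 the stretch held 9 of 18 such members. The number of members was 8 with edgeR, 4 with DESeq2 and 1 without the block, so it depended strongly on the test, and it was 9 to 18 when an animal was left out. These counts show the dependence on the setting only, as the share of all rows under each setting is not given here.

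Row 6942 was chosen for description after its values were seen. In polyA samples it had 425 to 664 normalized counts (median 529) in dorsal and 497 to 630 (median 559) in ventral samples. The log2 fold change of 0.098 (SE 0.083) had an adjusted p of 0.361 from limma, and 0.0901 with the block. In the dorsal RBD samples it had 4.28, 0 and 0 normalized counts, and in the ventral RBD samples 29.7, 19.6 and 25.3. These are 3, 0 and 0 reads against 23, 17 and 18, and the row passed the filter on low counts in RBD through its ventral samples alone, so that a test adds nothing and none is given. The ventral RBD samples were thus higher in 3 of 3 animals, while 5 of 7 polyA animals had a higher ventral value by a small amount.

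Members also differed in how much they varied between animals. In the dorsal polyA samples the median SD of log2 levels was 0.18 for the members and 0.10 for all 12609 rows, and in the ventral samples it was 0.16 and 0.097. The members were less expressed than these rows, and the part of their low level in this was not tested. In 4 members the highest polyA animal was at least 8-fold above the lowest, when the dorsal and ventral samples of an animal were averaged and 1 was added. This limit was set after the values were seen. Only 10 of the 12609 rows reached it, so that 2.21% of the members and 0.0793% of the rows did. The library types held different animals, so that the choice by L could itself favour rows that differ between animals. No result is therefore drawn from the higher share of the members.

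Row 30834 showed the strongest variation. In polyA replicates 3, 4, 6 and 7 it had 123, 140, 268 and 115 normalized counts in the dorsal and 135, 145, 285 and 134 in the ventral part. In replicates 1, 2 and 5 it had 0.938, 0.933 and 0.917 in the dorsal and 1.78, 3.58 and 0 in the ventral part. The animals thus fell into 4 with clear expression and 3 with next to none, and both parts of an animal always belonged to the same kind.

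Row 30835, the next row of the table, was high and low in the same animals. It had 73.7 to 198 normalized counts in both parts of replicates 3, 4, 6 and 7, and 0.895 to 11.0 in replicates 1, 2 and 5. Row 30838 was highest in the animals in which these rows were low. It had 94.7 to 160 normalized counts in replicates 1, 2 and 5, 47.7 to 79.4 in replicates 3 and 4, and 7.28 to 22.5 in replicates 6 and 7. Row 24817 had another pattern, with 76.9 to 178 normalized counts in replicates 2, 3, 4 and 7 and 7.05 to 21.8 in replicates 1, 5 and 6. Its dorsal sample was the higher one in 7 of 7 polyA animals, with log2 ratios of -1.50 to -0.24. Its log2 fold change of -0.88 had an adjusted p of 0.382 from limma and of 4.08e-05 with the animal as a block.

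In RBD samples these 4 rows had low values in all 3 animals. Row 30834 had 1.40 to 5.99 normalized counts, row 30835 had 0 to 4.88, row 30838 had 0 to 1.43 and row 24817 had 5.70 to 14.4. The RBD values of rows 30834, 30835 and 24817 lay in the range of the polyA animals with low values or close to it, while those of row 30838 lay below all polyA samples. No label placed an animal in both library types, so for these 4 rows a difference between library types and a difference between animals cannot be told apart.

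**Figure D5:**
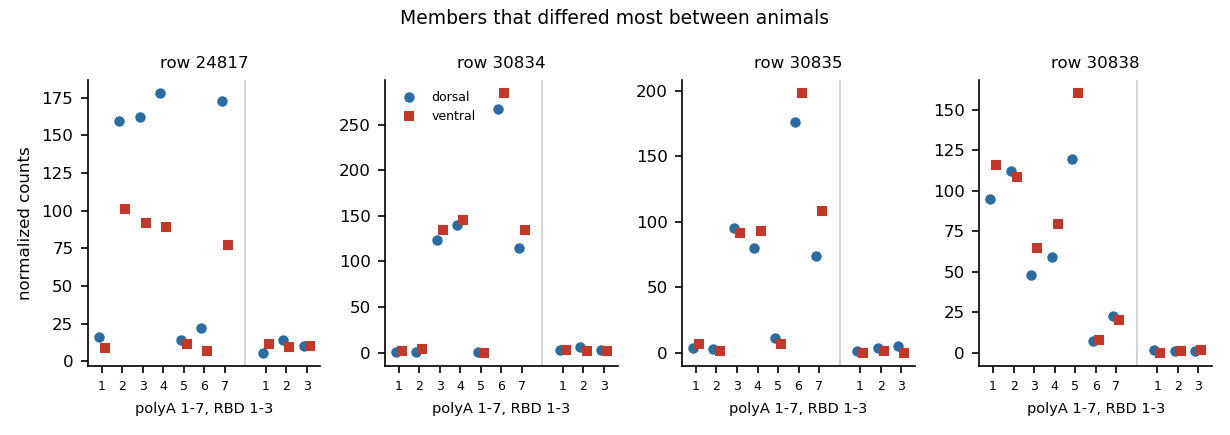
Normalized counts (y axis) of the 4 members that differed at least 8-fold between polyA animals, in each animal (x axis, polyA replicates 1 to 7 and, right of the grey line, RBD replicates 1 to 3). Blue circles are dorsal and red squares ventral samples, and both parts of an animal are high or low together. Rows 30834 and 30835 are high in polyA replicates 3, 4, 6 and 7, and row 30838 is lowest in polyA replicates 6 and 7.

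The choice of the members hardly depended on single animals. With each animal left out in turn, 179 to 186 rows passed, of which 175 to 179 were among the 181. With the dorsal samples alone 181 rows passed and with the ventral samples alone 187, of which 171 and 175 were members. L was at least 4 in both parts for 170 members (93.9%), and it was higher in the ventral part for 105 (58.0%).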

How the data were processed

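Reads were mapped by the authors to Rnor_6.0 with STAR 2.7.9a and counted per gene with featureCounts 2.0.1 (versions per the submitters' processing notes). The deposited values are signal values, gene counts divided by median-of-ratios size factors, with DESeq2 1.29. Within 1e-06, 100% of the values were whole multiples of what 1 read is worth in their sample, which gave back the reads, and edgeR on these reads called 8011 rows in polyA and 4188 in RBD. The members, lists and tests were chosen with earlier results of these data known.

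limma 3.58.1 (R 4.3.3, eBayes with trend) was fitted to log2(normalized counts + 1) over all rows kept by filterByExpr of edgeR 4.0.16 (minimum count 10), per dataset without an animal term, with Benjamini-Hochberg adjustment over all rows tested. The interaction was fitted over 20 samples with the animal as a block. Rows named are the 2 members with the highest L and, among members DE in polyA with 1 direction in 7 animals, the 2 with the largest log2 fold change each way. edgeR and DESeq2 1.42.0 on the recovered reads, other scalings, pseudocounts and filters, the block and leaving out each animal were the alternatives. The tests were tested on simulated data. The polyA labels give the animal of each sample, and RBD samples were paired by the replicate number in their titles. The deviations of an animal's 2 samples from the group means correlated by 0.27 to 0.52 across all rows tested. Over the members tested this correlation was 0.77 to 0.90 in the polyA animals and 0.15 to 0.59 in the RBD animals. Group errors are standard errors of the fits. Gene names and sequences are not analysed here.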

Additional observations from a re-analysis of the deposited data

Results flagged for a closer look

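Of 38 groups of 7 polyA values examined for an animal far from the others, 2 stood out, where chance gives about 1.9. They are nearly the same measure. The log2 ratio of the summed counts of all members, ventral to dorsal, was -0.037 in polyA replicate 1 against 0.24 to 0.41 in the other 6 animals. That of the 21 members in rows 32588 to 32623 was -0.036 against 0.24 to 0.42. On counts divided by library size, the ratio of all members in polyA replicate 1 was 0.016.

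By the test of the interaction, 13 members had a dorsoventral difference that was not the same in polyA and RBD samples. The fold changes of both datasets had opposite signs in 5 of these members, a count that is not set against all rows. The value of row 6942, 3.77 on the log2 scale, is no measure of size, as the row entered the RBD test through its ventral samples alone, its dorsal RBD samples had 3, 0 and 0 reads, and the value was 2.17 with a pseudocount of 5 and 6.03 with 0.1. What sets these members apart was not tested.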

How the results depend on the processing

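The number of members DE in polyA (80) was 70 to 103 under the other settings, and 71 to 82 when an animal was left out. It was 103 with the animal as a block, beside 59.8% of all rows. In RBD the number (6) became 10 with the animal as a block and was 4 to 6 when an animal was left out. The number that differed between the datasets (13) was 8 with edgeR, 4 with DESeq2, 28 without a filter on low counts, 8 with at least 10 reads in every sample, 8 at an adjusted p below 0.05 and 1 without the block, and 9 to 18 when an animal was left out. With fewer or more rows tested, 47 and 160 members entered, and the other causes were not tested. Counts without a share of all rows beside them are not compared with all rows. The choice of the members gave 21 rows on counts divided by library size, where the same minimum of 50 is a higher level by construction, and 174, all members, on counts scaled to 1 common total, a setting added after the data were seen. The mean log2 ratio of the summed counts in polyA (0.26 ± 0.15, SD, n = 7) was 0.23 to 0.31 when an animal was left out. It turned to -0.065 for the members outside rows 32588 to 32623, also added later. In RBD (0.012 ± 0.11, SD, n = 3) it was -0.03 to 0.08 when an animal was left out and -0.13 outside these rows. In the test of each dataset, the block changed the calls of 4 rows given by number. Rows 32588, 6942 and 24817 in polyA and row 32614 in RBD passed with it, and no call of the other rows given by number was lost or gained. Row 32588 also passed in polyA without replicate 1 or 4 (adjusted p = 0.0631 and 0.0686 from limma). The RBD depth limits all values there, as 60 members had at most 3 reads in every sample.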
